A study of Arabidopsis thaliana with 16 samples.

Results

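AP2/ERF proteins are plant transcription factors that bind DNA through an AP2 domain, and those of the ERF and DREB types are described here. Of 60 listed ERF and DREB genes, 16 had a probe set on the Affymetrix ATH1 array that the annotation table used here gives to exactly 1 gene, and these 16 are the members measured. Each had 1 such probe set, so no choice between probe sets was needed. The other 44 were not analysed here. By the family's published classification, 13 of the 16 are DREB type and 3 are ERF type (DEWAX, AT5G07580 and SHN3). Members that the gene table used here leaves without a name are called by their locus.

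ERF type proteins are known for binding the GCC box of defence genes, downstream of ethylene, jasmonate and wounding. DREB type proteins are known for binding the dehydration-responsive element of genes for cold and drought, and many genes of the family are switched on quickly after a stress and off again. Among the named members, ORA47 (AT1G74930) is a jasmonate-responsive activator of jasmonate synthesis, DEWAX (AT5G61590) a repressor of wax synthesis, SHN3 (AT5G25390) an activator of cuticle lipid genes, and TINY (AT5G25810) a DREB type factor named after the dwarf plants that overexpress it, with TINY2 (AT5G11590) as its close relative.

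The cells were suspension cultures of Arabidopsis thaliana, ecotype Landsberg erecta, shaken in the dark in medium with the auxin 2,4-D. On day 3 after transfer they received TA at 2 µM, IXB at 100 nM or 20 µL of methanol alone, the solvent that every culture received, and they were frozen after 6 h. TA and IXB are inhibitors of cellulose synthesis, known in general as thaxtomin A, a toxin of Streptomyces, and isoxaben, a herbicide. There were 4 replicates of each of the 3 groups, each a pool of 2 flasks of 100 mL, on 12 arrays. The labels call them biological replicates without stating if each had a parent culture of its own. The p-values therefore refer to the spread of these flasks, and a part of it may be technical.

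The deposited values are log2 levels in 2 sets of 8 columns, 1 for each inhibitor, and both sets hold the same 4 methanol arrays. The median level of a column was 4.76 to 4.85 for TA and its methanol arrays but 5.20 to 5.30 for IXB and its methanol arrays, so each inhibitor was compared with methanol within its own set. Every probe set was tested with limma, and "called" means a Benjamini-Hochberg adjusted p under 0.05 over all 22746 probe sets. Of 21 genes written as markers of cell types only 2 were measured, in the sense used above for the members. The annotation left 8730 of the 22746 probe sets unnamed, so a gene not measured here may still be on the array. RCA, a photosynthetic gene, stood at 9.13 log2 with methanol in the TA set, and EXPA7, a root hair gene, at 2.95, and neither was called in any comparison. No marker of dividing cells was among the genes measured, so the growth state of the cultures was not checked.

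After 6 h with TA, 6 of the 16 members were called higher and 0 lower, against a background of 5.41% of all probe sets called higher and 4.70% called lower. The 6 were 4 DREB type genes (AT1G33760, AT1G77640, AT1G44830 and AT4G32800) and 2 ERF type genes (DEWAX and AT5G07580). After IXB, 4 of 16 were called higher and 0 lower, against a background of 2.20% and 0.809%, and these were the DREB type genes AT1G33760, AT1G77640, AT1G44830 and AT4G32800. The median change of the 16 members was 0.16 log2 with TA and 0.16 with IXB, beside medians of -0.01 for all probe sets with either inhibitor. Both comparisons use the same methanol arrays, so they are not independent of each other. The members were chosen with earlier results of these data known. The member counts here and below are therefore no independent test of the family against the background. In bulk cultures a rise in each cell and a rise in the share of responding cells cannot be told apart.

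**Figure D1:**
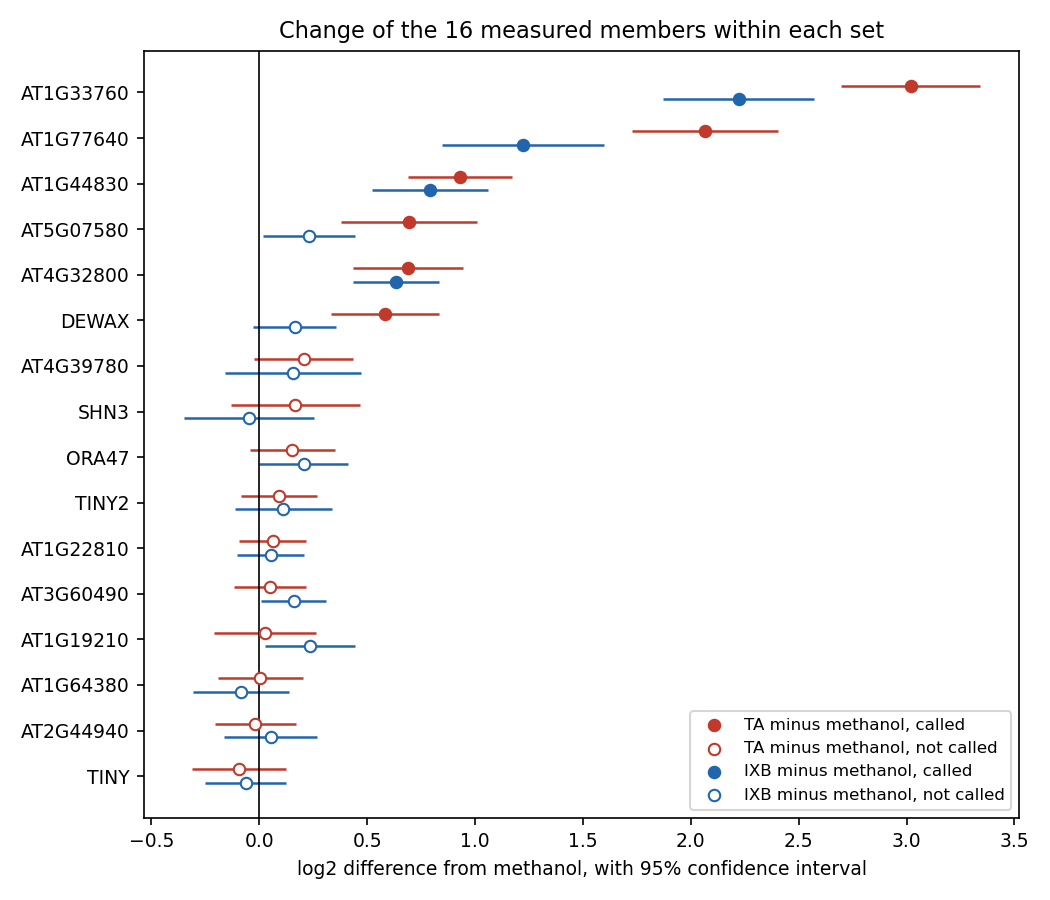
Log2 difference from methanol of the 16 measured members, TA in red and IXB in blue, with 95% confidence intervals from limma. Filled points were called and open points were not. With TA the 6 called members lie at the top, from 0.58 to 3.02, and the other 10 between -0.10 and 0.21. With IXB the 4 called members lie between 0.63 and 2.22 and the other 12 between -0.09 and 0.24.

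The largest change belonged to AT1G33760, a DREB type gene of group III. In the TA set its level on the 4 methanol arrays was 4.49, 5.18, 4.85 and 5.31 log2, and on the 4 TA arrays 8.14, 7.83, 7.97 and 7.96. The lowest TA array thus lay more than 2 log2 above the highest methanol array, and the TA arrays lay closer together than the methanol arrays (SD 0.13 against 0.36, n = 4). The rise was 3.02 log2 (SE 0.15), or 8.10-fold (limma adjusted p = 3.18e-08). In the IXB set the same methanol arrays read 5.07, 5.75, 5.40 and 5.94 and the 4 IXB arrays 7.91, 7.69, 7.89 and 7.57. Here too the groups were far apart, with a rise of 2.22 log2 (SE 0.16), or 4.67-fold (adjusted p = 9.61e-06).

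AT1G77640, a DREB type gene of group II, was second with both inhibitors. Its levels were 4.12, 4.66, 4.72 and 5.04 log2 with methanol and 6.81, 6.74, 6.77 and 6.47 with TA. The groups did not overlap, and the rise was 2.06 log2 (SE 0.16), or 4.18-fold (adjusted p = 2.01e-06). In the IXB set methanol arrays read 5.07, 5.67, 5.37 and 5.95 and IXB arrays 6.71, 6.73, 7.05 and 6.45. All 4 IXB arrays were again above all 4 methanol arrays, by 1.22 log2 on average (SE 0.17), or 2.33-fold (adjusted p = 0.00208).

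AT1G44830, also of group II, rose less. Its methanol arrays read 5.03, 5.46, 5.48 and 5.40 log2 and its TA arrays 6.19, 6.30, 6.46 and 6.12, which is a separation without overlap and a rise of 0.93 (SE 0.11), or 1.90-fold (adjusted p = 1.27e-04). With IXB the levels were 6.79, 6.57, 6.87 and 6.64 against 5.59, 6.16, 5.84 and 6.13 with methanol. The rise was 0.79 log2 (SE 0.12), or 1.73-fold (adjusted p = 0.00440), and the groups again did not overlap. On methanol replicate 1 the levels of AT1G33760, AT1G77640 and AT1G44830 were the lowest of the 4 methanol arrays, in both sets.

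AT4G32800, a DREB type gene of group III, was the called member with the lowest level in every group. Levels were 3.25, 3.40, 3.25 and 3.23 with methanol and 4.19, 3.98, 4.12 and 3.58 with TA. Replicate 4 was the lowest TA array and still above every methanol array. The rise was 0.69 log2 (SE 0.12), or 1.61-fold (adjusted p = 0.00211). In the IXB set methanol read 3.48, 3.38, 3.46 and 3.30 and IXB 4.10, 3.92, 4.26 and 3.87. This was a rise of 0.63 log2 (SE 0.09), or 1.55-fold (adjusted p = 0.00258), again without overlap.

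**Figure D2:**
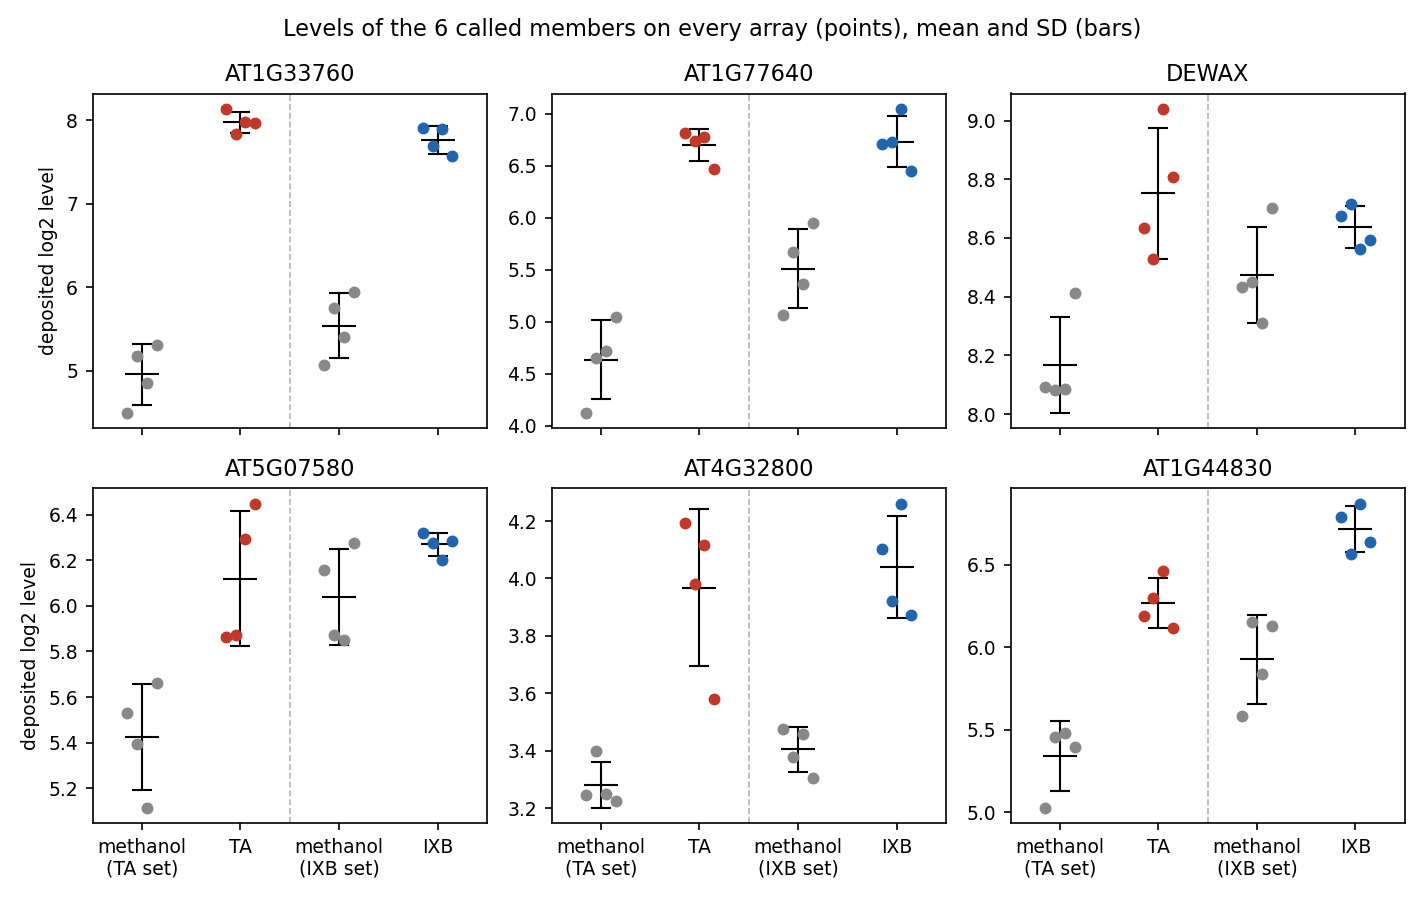
Deposited log2 level of the 6 members called in any comparison, on every array (points), with the group mean and SD (n = 4). The dashed line parts the TA set from the IXB set, whose levels are not comparable with each other. The TA arrays lie above the methanol arrays in all 6 panels, while IXB and methanol overlap for DEWAX and AT5G07580.

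The 2 ERF type members of group IX were called with TA and not with IXB. DEWAX, the wax repressor, read 8.09, 8.08, 8.09 and 8.41 log2 with methanol and 8.63, 8.53, 9.04 and 8.81 with TA. No TA array fell among the methanol arrays, and the rise was 0.58 (SE 0.12), or 1.50-fold (adjusted p = 0.00558). With IXB its levels were 8.68, 8.72, 8.56 and 8.59 against 8.43, 8.45, 8.31 and 8.70 with methanol. These groups overlapped, because methanol replicate 4 was above 3 of the IXB arrays, and the difference was 0.16 log2 with a 95% interval from -0.03 to 0.35 (adjusted p = 0.369).

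AT5G07580, the other group IX gene, read 5.53, 5.40, 5.11 and 5.66 log2 with methanol and 5.86, 5.87, 6.29 and 6.45 with TA. The TA arrays were all above methanol and formed a lower and a higher pair, with a mean rise of 0.69 (SE 0.15), or 1.62-fold (adjusted p = 0.00822). With IXB the levels were 6.32, 6.28, 6.20 and 6.28 against 6.16, 5.87, 5.85 and 6.27 with methanol. The highest methanol array reached into the IXB arrays, and the difference was 0.23 log2 with a 95% interval from 0.02 to 0.44 (unadjusted p = 0.0356 from limma, adjusted p = 0.247).

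With TA the other 10 members lay between -0.10 (TINY) and 0.21 (AT4G39780), and 0 of them had an unadjusted p of limma under 0.05. Their 95% intervals together ran from -0.31 to 0.47 log2, which leaves room for small changes in either direction. SHN3, the activator of cuticle lipids, ranged from 3.06 to 3.69 with methanol and from 3.25 to 3.74 with TA, a difference of 0.17 (95% interval -0.13 to 0.47). ORA47 ranged from 2.86 to 3.04 with methanol and from 2.91 to 3.30 with TA, a difference of 0.15 (-0.04 to 0.35). TINY2 (0.09) and TINY (-0.10) also had overlapping groups, and the group II genes AT1G22810 and AT1G19210 differed from methanol by 0.06 and 0.03. The rest were AT3G60490 (0.05) and AT2G44940 (-0.02) of group III and AT4G39780 (0.21) and AT1G64380 (0.01) of group I.

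With IXB 12 members were not called, and they lay between -0.09 (AT1G64380) and 0.24 (AT1G19210), with 95% intervals from -0.35 to 0.47 log2 in all. AT1G19210 (unadjusted p = 0.0290), AT5G07580 and AT3G60490 (0.0395) had an unadjusted p of limma under 0.05. AT3G60490 ranged from 2.59 to 2.78 with methanol and from 2.84 to 2.92 with IXB, so all 4 IXB arrays were above methanol, but the difference was 0.16 (SE 0.07, adjusted p = 0.259). ORA47 ranged from 3.17 to 3.53 with methanol and from 3.38 to 3.62 with IXB (difference 0.20, 95% interval -0.00 to 0.41). SHN3 ranged from 3.18 to 3.92 and from 3.37 to 3.55 (difference -0.05, 95% interval -0.35 to 0.25). AT4G39780 was uneven, with IXB replicate 1 at 4.86 and the other 3 between 4.12 and 4.32.

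Most members were dim, which here means a mean log2 level under 5 over the methanol arrays of the set, a split chosen after seeing the data. In the TA set 13 of the 16 were dim and 3 of these were called (AT1G33760, AT1G77640 and AT4G32800), as were the 3 brighter members. In the IXB set 11 were dim and 1 of these was called (AT4G32800), as were 3 of the 5 brighter members. Over all probe sets of the TA set 567 of 11803 dim and 1732 of 10943 brighter ones were called in either direction, and in the IXB set 154 of 10882 and 531 of 11864. How far a dim signal hid changes of the uncalled members was not tested.

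All 4 TA arrays lay above all 4 methanol arrays for 6 members and below them for 0, against 7.45% and 8.57% of all probe sets. All 4 IXB arrays lay above methanol for 5 members and below for 0, against 5.35% and 6.24% of all probe sets. Deviations of single arrays showed how evenly the members moved. AT1G33760 stood 2.85 to 3.18 log2 above the methanol mean on the TA arrays and 2.03 to 2.37 above it on the IXB arrays, so every TA array exceeded every IXB array. For AT1G44830 the ranges overlapped in part (0.78 to 1.12 with TA, 0.64 to 0.94 with IXB). For AT4G32800 the IXB range (0.47 to 0.86) lay within the TA range (0.30 to 0.91).

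**Figure D3:**
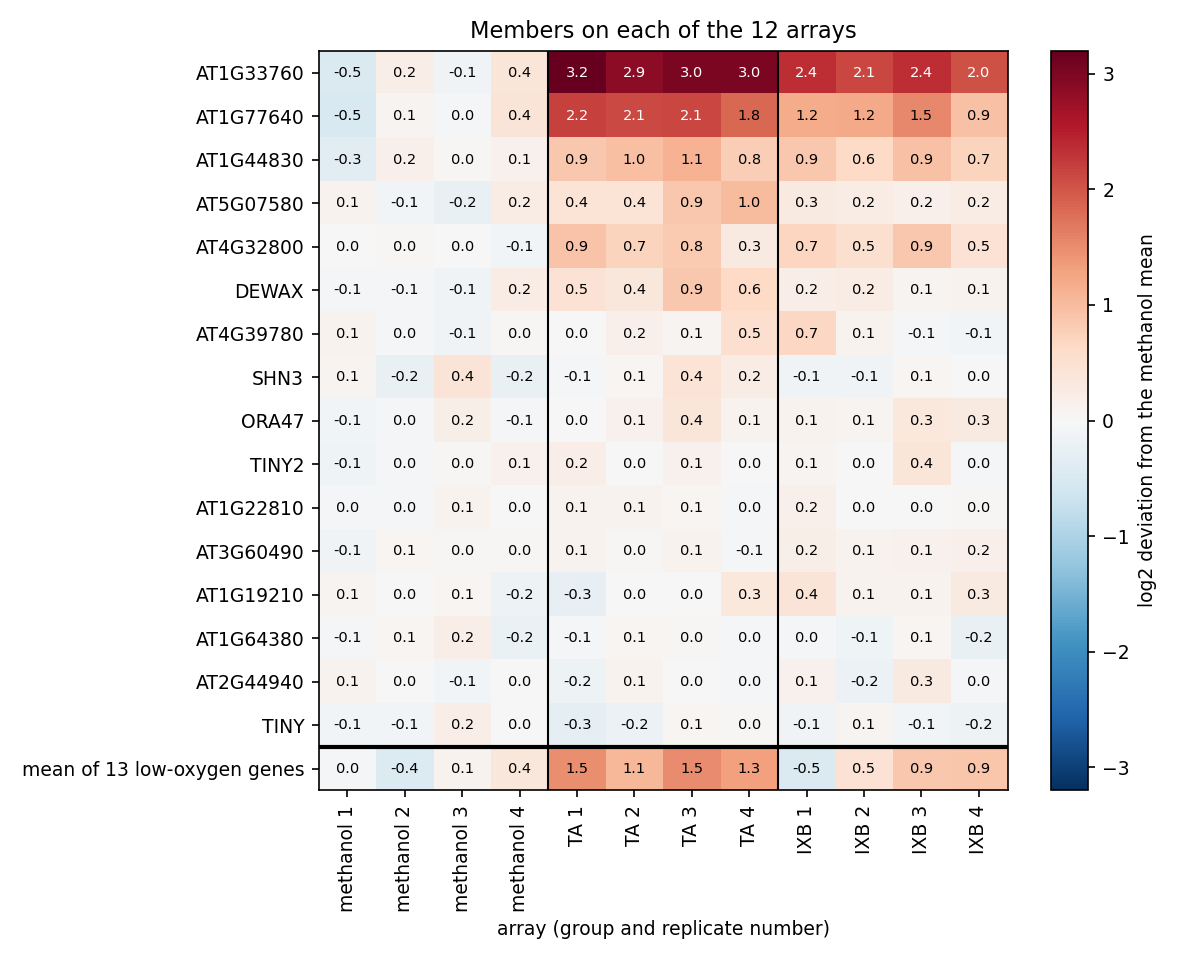
Deviation of each member from the methanol mean of its set, in log2, on each of the 12 arrays, where the methanol value is the mean of the array's 2 versions. The bottom row is the mean of 13 low-oxygen genes. AT1G33760 is above 2 on all 8 treated arrays, and the low-oxygen mean runs from 1.07 to 1.51 on the TA arrays and from -0.45 to 0.88 on the IXB arrays.

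Whether TA and IXB differed was tested directly, after the methanol mean of the set had been subtracted from every column. Of 16 members 4 were called higher with TA and 0 higher with IXB, against a background of 2.72% and 2.05% of all probe sets. AT1G77640 was higher with TA by 0.84 log2 (SE 0.16, limma adjusted p = 0.00588), AT1G33760 by 0.80 (SE 0.14, adjusted p = 0.00511), AT5G07580 by 0.46 (SE 0.13, adjusted p = 0.0473) and DEWAX by 0.42 (SE 0.10, adjusted p = 0.0307). In these 4 genes all TA deviations were above all IXB deviations, which held for 6.08% of all probe sets. The opposite order held for 1 member and 5.50% of all probe sets. That member was AT3G60490, lower with TA by 0.11 log2 and not called.

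Both calls of the group IX genes were fragile. Without any 1 of 6 arrays (TA replicates 3 and 4 and the 4 IXB replicates) DEWAX lost its call, with a difference of 0.33 to 0.45 and an adjusted p of up to 0.0838, and AT5G07580 lost it without those same arrays or methanol replicate 1 or 3, with a difference of 0.35 to 0.48 and an adjusted p of up to 0.125. For 2 called DREB type genes no difference between the inhibitors was called. AT1G44830 differed by 0.14 log2 with a 95% interval from -0.10 to 0.37, and AT4G32800 by 0.05 with an interval from -0.19 to 0.30. The remaining 10 members were within -0.21 (AT1G19210) and 0.21 (SHN3).

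The sets are on different scales, so the offset of their shared methanol arrays was set beside these differences. AT1G77640 had deposited levels of 6.70 ± 0.16 with TA and 6.73 ± 0.25 with IXB (SD, n = 4), which cannot be compared directly. The same methanol arrays stood at 4.63 beside TA and at 5.51 beside IXB, an offset of 0.88, whereas probe sets of similar level had a median offset of 0.46, and the 5th and 95th percentiles were 0.14 and 0.81. AT1G33760 was offset by 0.58, near the 0.44 of its neighbours in level, with 7.97 ± 0.13 with TA and 7.76 ± 0.17 with IXB (SD, n = 4). The spread of the 4 methanol arrays was alike in both sets, at 0.92 and 0.88 log2 for AT1G77640 and at 0.81 and 0.88 for AT1G33760. The IXB set was also mapped to the scale of the TA set by level, an alternative added after seeing the data. Once centred on methanol, AT1G77640 then differed by 0.79 (adjusted p = 0.0114) and AT1G33760 by 0.71 (adjusted p = 0.0121). Mapped but not centred, AT1G77640 differed by 0.34 and was not called (adjusted p = 0.0770), AT5G07580 differed by 0.24 and was not called (adjusted p = 0.195), and AT1G33760 at 0.56 (adjusted p = 0.00273) and DEWAX at 0.44 (adjusted p = 0.0137) were called. SHN3, at 0.39, was then called as well (adjusted p = 0.0205).

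**Figure D4:**
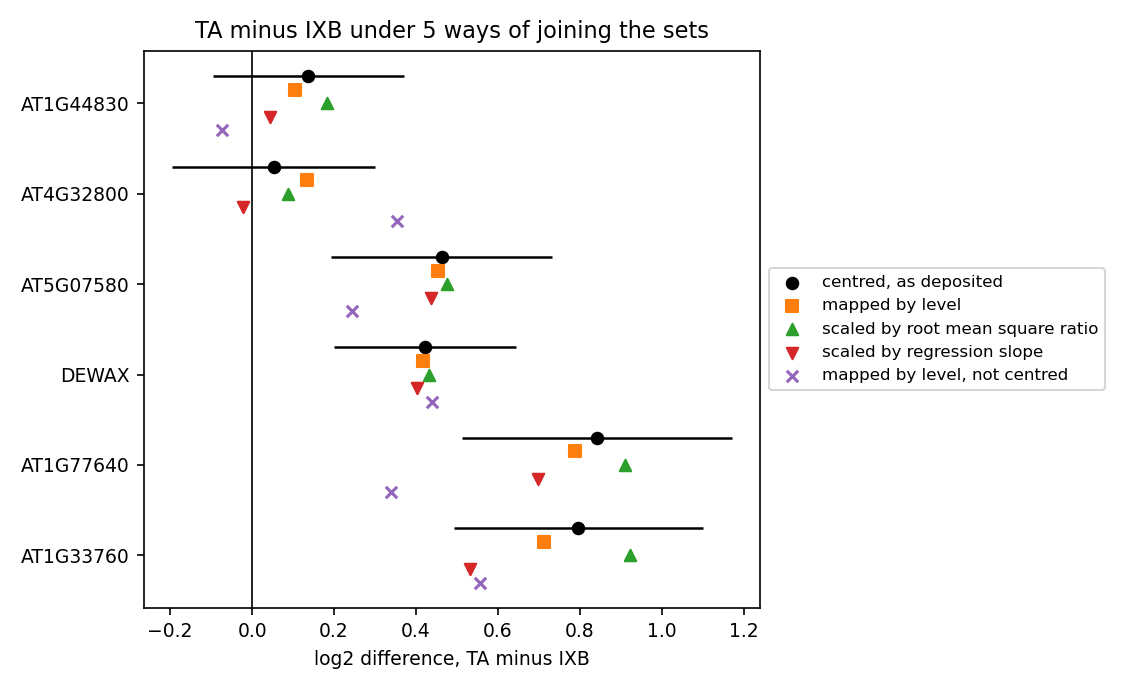
TA minus IXB in log2 for the 6 members called in any comparison, with the 95% confidence interval of the centred values as deposited (black) and the value under 4 other ways of joining the sets. All 5 values are above 0 for AT1G33760, AT1G77640, DEWAX and AT5G07580, and those of AT1G44830 and AT4G32800 lie on both sides of 0.

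Genes that act before or after these factors were taken from 7 lists with 108 genes, of which 26 were measured, and the lists were chosen with earlier results of these data known. Upstream, AT1G12010, an ACC oxidase gene of ethylene synthesis and the 1 of 14 measured, was called higher with TA (0.35 log2, adjusted p = 0.0293) and not with IXB (-0.05), and the difference between the inhibitors was not called (0.41, adjusted p = 0.0800). For ethylene perception and signalling 2 of 13 were measured and 0 called. EIN3, the main transcription factor of the ethylene response, was at -0.08 with TA and 0.02 with IXB, and RTE1, which acts on the receptor ETR1, at 0.01 and -0.11, with 0.12 between the inhibitors. For regulators of AP2/ERF proteins 0 of 10 were measured.

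Among cold and drought targets of DREB proteins 4 of 12 were measured. With TA 2 of these 4 were called higher, against 5.41% of all probe sets. These were LTI30, by 0.88 log2 (adjusted p = 8.76e-04), and COR47, by 0.82 (adjusted p = 1.11e-05), both dehydrins. COR15A (0.01) and COR15B (-0.07) were not called. With methanol in the TA set COR15A (2.80), COR15B (2.86) and LTI30 (3.88) were dim, while COR47 stood at 11.0 log2. With IXB 0 of 4 were called, and COR47 was at 0.35 (adjusted p = 0.0616) and LTI30 at 0.31 (adjusted p = 0.241). Both were higher with TA than with IXB, LTI30 by 0.56 (adjusted p = 0.0409) and COR47 by 0.47 (adjusted p = 0.00506). COR15B went the other way, at 0.26 with IXB (adjusted p = 0.208). Its TA minus IXB difference was -0.33 and was not called (adjusted p = 0.0614). The list's median was 0.41 with TA and 0.29 with IXB, beside -0.01 for all probe sets with either.

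Of 6 GCC-box targets of ERF proteins 2 were measured, the plant defensin genes PDF1.2 and PDF1.2b, and 0 were called with either inhibitor. PDF1.2 was at 0.04 with TA and at -0.36 with IXB (adjusted p = 0.0660), and the difference between the inhibitors, 0.39, was called (adjusted p = 0.0323). Its signal was dim throughout, at 2.93 log2 with methanol and 2.96 with TA in the TA set. In the IXB set it was at 3.19 with methanol and 2.83 with IXB. PDF1.2b was at -0.00 and 0.16, on a probe set of a type that can bind related transcripts. Of 27 other AP2 domain genes 4 were measured (AT1G72570, BBM, SMZ and SNZ), and 0 were called in any of the 3 comparisons. All 4 were dim, with group means between 2.55 (SNZ with TA) and 3.32 log2 (SMZ with IXB). The farthest from methanol was SNZ with TA, at -0.12.

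Low-oxygen genes, the known targets of group VII ERF proteins, were measured for 13 of 26 genes, and no group VII gene was among the members measured. With TA 11 of 13 were called higher, against 5.41% of all probe sets. CML38 (2.64 log2), AT5G66985 (2.10), AT5G10040 (2.05) and AT1G33055 (1.85) rose most. With IXB 0 of 13 were called, against 2.20% of all probe sets called higher. CML38 was at 0.95 (adjusted p = 0.156). Nearest to a call were AT3G23170 at 0.78 (adjusted p = 0.0633) and AT4G24110 at 0.73 (adjusted p = 0.0739). The lowest was AT3G27220, at -0.01. The list's median was 1.46 with TA and 0.51 with IXB, beside -0.01 for all probe sets with either. Between the inhibitors 6 of 13 were called higher with TA, against 2.72% of all probe sets. Among them were CML38, by 1.69, and AT3G10040, also named HRA1, a repressor in this response, by 1.13. The mean of the 13 genes stood 1.07 to 1.51 log2 above the methanol mean on the TA arrays. It was at -0.45, 0.46, 0.86 and 0.88 on IXB replicates 1 to 4, and between -0.45 and 0.37 on the methanol arrays. The part of the low-oxygen response in the changes with TA was not tested.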

How the data were processed

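The submitters' processing notes name RMA for the deposited log2 values, with no version or setting. This method gives the arrays of a run a shared distribution, so a shift of all transcripts is not visible. The members and gene lists were chosen with earlier results of these data known. From 22810 probe sets, 64 Affymetrix controls were left out. The annotation listed 14016 of the others, 13513 of them for exactly 1 gene, and 13436 of these matched a TAIR10.1 locus, used for names only. No build is named for the array, so no coordinates are given, and sequences of the members were not used here.

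All fits were two-sided tests with lmFit and eBayes of limma 3.58.1 under R 4.3.3, adjusted by Benjamini-Hochberg over 22746 probe sets. Figures were drawn with Python 3.11.15 and matplotlib 3.10.9. The array number limits precision, and standard errors of members ran from 0.07 to 0.17 log2. For TA against IXB both versions of each methanol array were averaged to count as 1 array. After centring, versions differed by a median of 0.05 log2 over the members, at most 0.23. The fits were tested on simulated data with independent noise on each array, a setting that cannot address shared cultures or days.

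Named were all measured members, and from each list up to 4 called genes, or the 1 farthest from 0. For lists with at most 4 measured genes the others were named too, after their values were seen. The same holds for AT3G23170, AT4G24110 and AT3G27220 of the low-oxygen list with IXB. Deviations of same-numbered methanol and IXB arrays correlated at 0.10 to 0.15, above 0.1 for every pair, although only 2 of the 4 correlated best with their own number and no label says what a number marks. The reported values come from fits without a block, and the replicate block is an alternative. For methanol and TA they ran from -0.06 to 0.29, highest for replicate 3, and for TA and IXB from -0.02 to 0.11. Such correlations cannot settle if arrays of the same number shared a culture or a day. The alternatives included a replicate block, an intensity trend with a robust prior, array weights, other thresholds, probe set filters and normalizations, other arrays in the fit, other ways to join the sets, and leaving out each array.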

Additional observations from a re-analysis of the deposited data

Results flagged for a closer look

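Within groups of 4 arrays, 4 of 64 member and group combinations held 1 array far from the other 3, where the check used marks about 1 in 20 by chance. DEWAX on methanol replicate 4 of the TA set was at 8.41 log2 with the other 3 between 8.08 and 8.09, and every TA array, from 8.53 up, was still above it. AT4G32800 on methanol replicate 2 of the TA set was at 3.40, with the others between 3.23 and 3.25. AT1G19210 on methanol replicate 4 of the TA set was at 2.59, with the others between 2.74 and 2.76. AT3G60490 on methanol replicate 1 of the IXB set was at 2.59, with the others between 2.76 and 2.78.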

How the results depend on the processing

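With either inhibitor against methanol, leaving out any 1 array kept 6 members higher with TA and 4 with IXB, and 0 lower. With probe sets of a set mean under 5 left out, 5 members were tested and 5 called with TA and 3 with IXB, but AT1G33760 and AT1G77640 passed this filter in the TA set only through their TA arrays, so the 5 supports nothing. No call of a member changed with a replicate block, which gave 6, 4 and 4 members higher for TA, IXB and TA against IXB. For TA against IXB, 4 members were higher as reported, 2 at an adjusted p under 0.01, 1 with IXB deviations divided by the slope 0.894, and 2 to 4 when 1 array was left out. With that slope AT1G33760 was at 0.53 (adjusted p = 0.0660) and only AT1G77640 kept the call (0.70, adjusted p = 0.0329). The reverse slope was also under 1, at 0.796. Alternatives chosen after seeing the data were the ratio of root mean square deviations, 1.06, with 4 called, and mapping by level. With the IXB set mapped by level and centred, 3 were called, and AT5G07580 was at 0.45 (adjusted p = 0.0538). AT5G07580 also lost its call when values were quantile normalized again (adjusted p = 0.0615), median centred (0.0552) or fitted with the treated arrays alone (0.0587). Over all probe sets, the counts called higher and lower ran from 648 to 1381 and 397 to 1437 for TA, 226 to 625 and 16 to 314 for IXB, and 220 to 1778 and 67 to 1848 for TA against IXB. Each member had 1 single-gene probe set, so no other probe set was tried.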
